A study of Mus musculus with 11 samples.

Results

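The comparison set 7 libraries of mouse embryos homozygous for 1 of 2 signalling-mutant alleles of Fgfr1 against 4 wild-type libraries, over all genes, to find what the mutant lines have in common. The members were chosen by the column names of the count table: 3 libraries carry the name FCPG, 4 the name FCSPG and 4 the name WT, which is 11 of the 11 libraries in the series. The genotypes are Fgfr1 FCPG/FCPG, Fgfr1 FCSPG/FCSPG and wild type, and all are tailbud tissue microdissected at embryonic day 8.5. According to the study's design text, both alleles carry point mutations at receptor residues that bind downstream effectors. The letters of the allele names are not expanded in the labels and are kept here as names. No strain is given, and nothing says whether the wild-type embryos are littermates of the mutants. PolyA RNA was sequenced, and reads per gene were counted for 56748 genes, of which 16135 passed the filter on low counts and were tested.

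FGFR1 is a receptor tyrosine kinase that passes FGF signals to the ERK pathway and other effectors through adaptors docked on its intracellular part. At the stage sampled the tailbud holds neuromesodermal progenitors, which feed the spinal cord and the presomitic mesoderm, and FGF signalling there keeps cells immature and acts together with Wnt and Notch on somite formation. Mouse embryos that lack Fgfr1 fail in gastrulation, because cells at the primitive streak do not leave the epithelium and pattern mesoderm normally.

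Libraries held between 16014698 and 25453070 counts, and scaling factors (TMM, trimmed mean of M-values) ran from 0.947 to 1.03. Levels are given as CPM, a gene's counts relative to the scaled library total, which compares libraries for 1 gene but not genes with each other, since gene length is not removed. Libraries are named by the number in their column, which is not the number in their title. The labels do not say that the libraries of a group come from separate embryos, so a p-value here measures only the spread between libraries, which may be technical. Y-linked genes were counted in 3 of the 7 mutant libraries (FCPG libraries 19 and 45, FCSPG library 32). They were counted in none of the wild-type libraries, so the sexes are not balanced. Each mutant line holds both sexes and so comes from more than 1 embryo, which cannot be told for wild type. Of the defining markers of neuromesodermal progenitors, presomitic mesoderm and somites, T, Sox2, Tbx6 and Meox1 were present in every library. The somite marker Uncx was at 0 in 3 libraries, FCPG libraries 45 and 46 and FCSPG library 13. Tcf15, another somite marker, ranged from 1.43 CPM in FCSPG library 13 to 59.4 CPM in wild-type library 25. T ranged from 23.1 CPM in FCPG library 45 to 140 CPM in wild-type library 25. In that FCPG library Sox2 was at 1.06 CPM against 40.5 to 55.6 CPM in wild type, Meox1 at 3.06 CPM against 24.4 to 88.6 CPM, and Tbx6 at 9.18 CPM against 47.6 to 58.3 CPM. FCPG library 46 was low as well in Meox1 (3.40 CPM) and Tbx6 (7.29 CPM), so these tissue markers were present but scarce in both. Several libraries stood apart. FCPG library 45 was highest of the mutants for 168 of the 208 genes described next as higher, and wild-type library 33 was the wild-type library nearest the mutants for 98 of them. Wild-type library 33 also had 75.5 CPM of Pou5f1, an epiblast gene, against 2.28 to 4.33 CPM in the other 3 wild-type libraries.

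No gene passed the pooled comparison. edgeR's quasi-likelihood test, with Benjamini-Hochberg adjustment over the 16135 genes, called 0 genes (0%), and the smallest adjusted p was 0.178. Without adjustment 2664 genes had p under 0.05, 16.5% of those tested, 1470 higher (9.11%) and 1194 lower (7.40%) in mutants. limma-voom also called 0 genes, with 2834 under 0.05 before adjustment. DESeq2's Wald test called 728 of 19840 genes, 546 higher (2.75%) and 182 lower (0.917%). The genes described here are therefore given as values, and no single-gene difference below is a call of the main test. With wild-type library 33 left out, edgeR called 18 genes, 1 higher and 17 lower, the most of any single omission.

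A simpler reading asks which genes have all 7 mutant libraries on the same side of all 4 wild-type libraries. There were 208 such genes above wild type, 1.29% of the 16135 tested, and 178 below it, 1.10%. All 386 of these genes had the same sign in FCPG and in FCSPG when the lines were fitted as separate groups, which follows from the way they were counted. An unadjusted p under 0.05 was found for 202 of the 208 and for 161 of the 178. These p-values come from the same libraries as the separation, so they are not further support for it. Leaving out any of wild-type libraries 25 and 33, FCPG library 46 and FCSPG library 30 moved the count of 386 by more than 1.5 times, to 809, 1600, 582 and 1126.

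**Figure D1:**
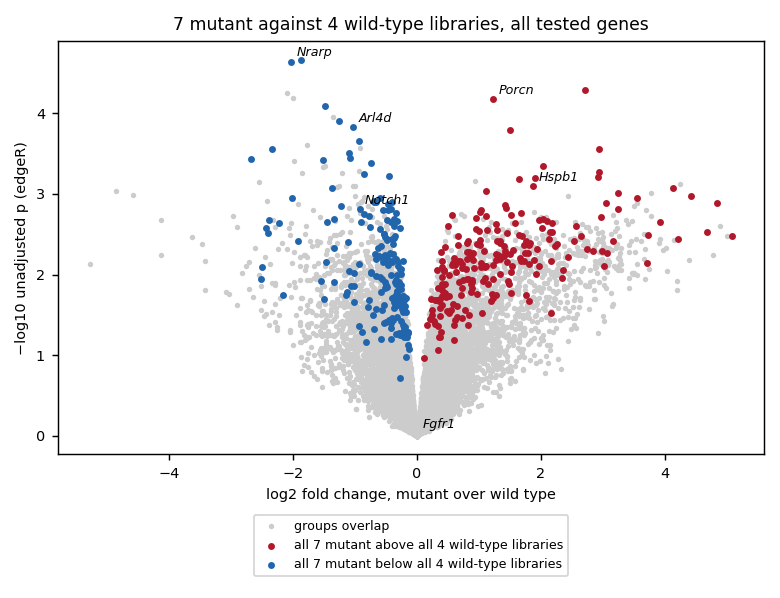
Log2 fold change of mutant over wild type (horizontal) and −log10 of edgeR's unadjusted p (vertical) for the 16135 tested genes. Red and blue points are the 208 and 178 genes whose 7 mutant libraries lie all above or all below the 4 wild-type libraries; Nrarp is among the smallest p-values on the lower side, Porcn on the higher side, and Fgfr1 lies at the bottom near 0.

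Fgfr1 itself (ENSMUSG00000031565, mm39 chromosome 8, 26003670 to 26065734) did not separate the groups. Wild-type libraries held 185, 170, 207 and 211 CPM, FCPG libraries 242, 178 and 183 CPM, and FCSPG libraries 180, 170, 162 and 248 CPM. The log2 fold change of mutant over wild type was 0.01 ± 0.13 (SE; edgeR adjusted p = 0.973). The alleles are point mutations, so the level of the transcript does not check the labels. Genes close to Fgfr1 were then counted, since they can be inherited together with the allele; the distances were chosen after the data had been seen. Of the 97 other tested genes within 10 Mb, 2 did not overlap between groups (2.06%, beside 2.39% of all tested genes), namely Atp7b, higher, and Purg, lower. Within 20 Mb the count was 7 of 172 genes (4.07%), and on the rest of the chromosome 17 of 670 (2.54%).

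Among the protein-coding genes with a mean of at least 5 CPM and no overlap between groups, from which up to 15 were named in each direction, the smallest p on the lower side belonged to Nrarp, the Notch-regulated ankyrin repeat protein, a target and feedback inhibitor of Notch signalling (ENSMUSG00000078202, mm39 chromosome 2, 25070770 to 25073351). Its level was 21.5, 20.5, 32.0 and 11.5 CPM in wild-type libraries 24, 25, 26 and 33. The FCPG libraries had 6.86, 2.59 and 5.59 CPM and the FCSPG libraries 3.51, 6.38, 7.32 and 4.27 CPM. Wild type thus averaged 21.4 ± 8.38 CPM (SD, n = 4), and all mutants averaged 5.22 ± 1.80 CPM (SD, n = 7). The highest mutant library lay below the lowest wild-type library, number 33, and the lines overlapped each other fully. Nrarp was 4.09-fold higher in wild type by edgeR's fit, a log2 fold change of −2.03 ± 0.31 (SE, edgeR adjusted p = 0.178). The same value was −2.09 in FCPG and −1.99 in FCSPG. DESeq2 gave an adjusted p of 1.11e-06. Without wild-type library 33 edgeR's adjusted p was 0.0186, but leaving out the wild-type library nearest the mutants widens the gap by construction.

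Every tested member of the list of Notch pathway and segmentation-clock genes lay on the same side as Nrarp. All 22 were lower in mutants and their median log2 fold change was −0.82, while over all tested genes 8107 were lower, 8028 higher and the median was −0.00. The test called 0 of the 22. Unadjusted, 10 were lower with p under 0.05, where 7.40% of all tested genes were, and 4 lay below wild type without overlap, where 1.10% of all tested genes did. The list median was −0.24 with the mean log2 level of visceral endoderm genes as a covariate (the visceral endoderm covariate). The summed level of the list was 872 to 1174 CPM in wild type and 586 to 788 CPM in the mutants, without overlap. By mean log2 CPM the groups did overlap, with FCSPG library 30 (4.29) above wild-type library 33 (4.20). The list median was −0.82 in FCPG and −0.85 in FCSPG.

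The receptor Notch1 was at 71.3, 63.8, 105 and 63.9 CPM in wild type, at 55.2, 44.1 and 43.0 CPM in FCPG and at 19.4, 37.2, 44.4 and 36.9 CPM in FCSPG. No mutant library reached a wild-type library, and FCSPG library 13 was the lowest of all. The log2 fold change was −0.92 ± 0.23 (SE; edgeR adjusted p = 0.193). Dll3, a divergent ligand that acts within the cell in presomitic mesoderm, was at 45.6 to 81.7 CPM in wild type and at 2.92 to 41.4 CPM in mutants, a log2 fold change of −1.46 ± 0.45. Wild-type library 33 and FCPG library 19 were the closest to each other. Heyl, a transcriptional repressor downstream of Notch, was at 0.937 to 4.75 CPM in wild type and at 0 to 0.909 CPM in mutants, with a log2 fold change of −2.41 ± 0.65 at levels too low to weigh single libraries. Hey1, of the same family, had a log2 fold change of −0.99 ± 0.23 with overlap of 2 mutant libraries and wild-type library 33. The clock genes Hes7 and Hes5, named here after their values were seen, had log2 fold changes of −1.47 ± 0.75 and −0.82 ± 0.75 with wide overlap. Hes7 was at 0.53 and 1.22 CPM in FCPG libraries 45 and 46 and at 9.20 to 24.5 CPM in the other 5 mutants.

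Upstream sequences of Nrarp, the named gene with the smallest p on the lower side, and of Hes5, another Notch target, are shown because members of the list were lower together. The 250 bases before the annotated start are taken from the RefSeq promoter table (build GRCm38.p6, which is not the build of the count table), in lower case, with matches to the RBPJ motif GTGGGAA or its reverse complement TTCCCAC in capitals. RBPJ is the DNA-binding partner of the Notch intracellular domain. Nrarp lies on the plus strand at chr2:25180508-25180757 and Hes5 on the plus strand at chr4:154960673-154960922.
Nrarp: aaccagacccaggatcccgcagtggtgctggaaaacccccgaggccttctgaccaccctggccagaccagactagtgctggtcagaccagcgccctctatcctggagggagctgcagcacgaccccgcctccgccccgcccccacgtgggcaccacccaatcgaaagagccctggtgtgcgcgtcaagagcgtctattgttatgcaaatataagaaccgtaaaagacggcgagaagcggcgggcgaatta
Hes5: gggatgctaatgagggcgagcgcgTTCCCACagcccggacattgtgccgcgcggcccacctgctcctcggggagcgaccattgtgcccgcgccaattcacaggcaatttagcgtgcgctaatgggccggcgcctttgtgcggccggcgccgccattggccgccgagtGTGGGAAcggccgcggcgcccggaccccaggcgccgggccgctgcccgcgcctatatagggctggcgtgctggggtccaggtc
Hes5 held 2 matches, the first at position −226 and the other at −83 from the start, and Nrarp held none in this window. Hes7 held 1 match, at −180, and Notch1 and Dll3 held none. Of 32851 promoters in the table, 1779 held at least 1 match (5.42%). A match here is a string of letters and not a measured site.

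The other named genes on the lower side were spread over several roles, and each had all 7 mutant libraries below all 4 wild-type libraries. Regulators of small GTPases and the cell cortex were among them. Dlc1, a GTPase-activating protein, was at 61.6 to 94.9 CPM in wild type and at 34.8, 40.0 and 54.0 CPM as lowest, median and highest of the mutants, a log2 fold change of −0.75 ± 0.16. The 3 male mutants (34.8 to 39.9 CPM) lay below the 4 female mutants (40.0 to 54.0 CPM), while all wild-type libraries are female. Arhgap28, of the same class, was at 71.2 to 111 CPM and at 41.8 to 68.8 CPM (−0.68 ± 0.16). Msn, moesin, which links actin to the membrane, was at 246 to 276 CPM and at 151 to 226 CPM (−0.46 ± 0.11). Wild-type library 33 was the nearest wild-type library for 8 of the 15 lower genes and FCSPG library 30 the nearest mutant library for 10.

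Arl4d, a small GTPase of the ARF family, was at 37.6, 43.5, 46.1 and 23.3 CPM in wild type, at 17.6, 22.4 and 17.5 CPM in FCPG and at 22.5, 19.4, 16.6 and 13.2 CPM in FCSPG. Wild-type library 33 again lay next to the mutants, 23.3 CPM against 22.5 CPM in FCSPG library 13, so leaving it out widens the gap by construction. Its log2 fold change was −1.03 ± 0.19 (SE; edgeR adjusted p = 0.193), and 0.0194 was the adjusted p without library 33. Fzd1, a Wnt receptor, was at 30.7 to 41.7 CPM in wild type and at 15.8 to 29.0 CPM in mutants (−0.69 ± 0.16). Pcdhgc3, a clustered protocadherin that shares exons with the other genes of its cluster and so is uncertain as a single gene, had a log2 fold change of −0.85 ± 0.21.

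Smaller differences with little spread made up the rest of the lower side. Ahsa2, related to an activator of HSP90, was at 41.4 to 46.5 CPM in wild type and at 27.6 to 36.6 CPM in mutants, a log2 fold change of −0.44 ± 0.10. Mki67, the proliferation marker Ki-67, was at 403 to 512 CPM and at 337 to 394 CPM (−0.33 ± 0.08). Its separation was narrow, 403 CPM in wild-type library 33 against 394 CPM in FCPG library 19, and the cell-cycle list as a whole had 16 of 22 members lower with a median of −0.06. Hnrnpa3, an RNA-binding protein with processed pseudogenes of nearly the same sequence, had −0.39 ± 0.09. Ubn2, a histone chaperone subunit, had −0.47 ± 0.12, and Dennd4a, a Rab exchange factor, had −0.66 ± 0.16. Dennd11, with a DENN domain, and Purg, a nucleic acid-binding protein, had −0.59 ± 0.14 and −0.54 ± 0.13. The edgeR adjusted p was 0.193 for each of these genes. DESeq2 called all 15 of the lower named genes, which had been chosen by small p in the same libraries.

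**Figure D2:**
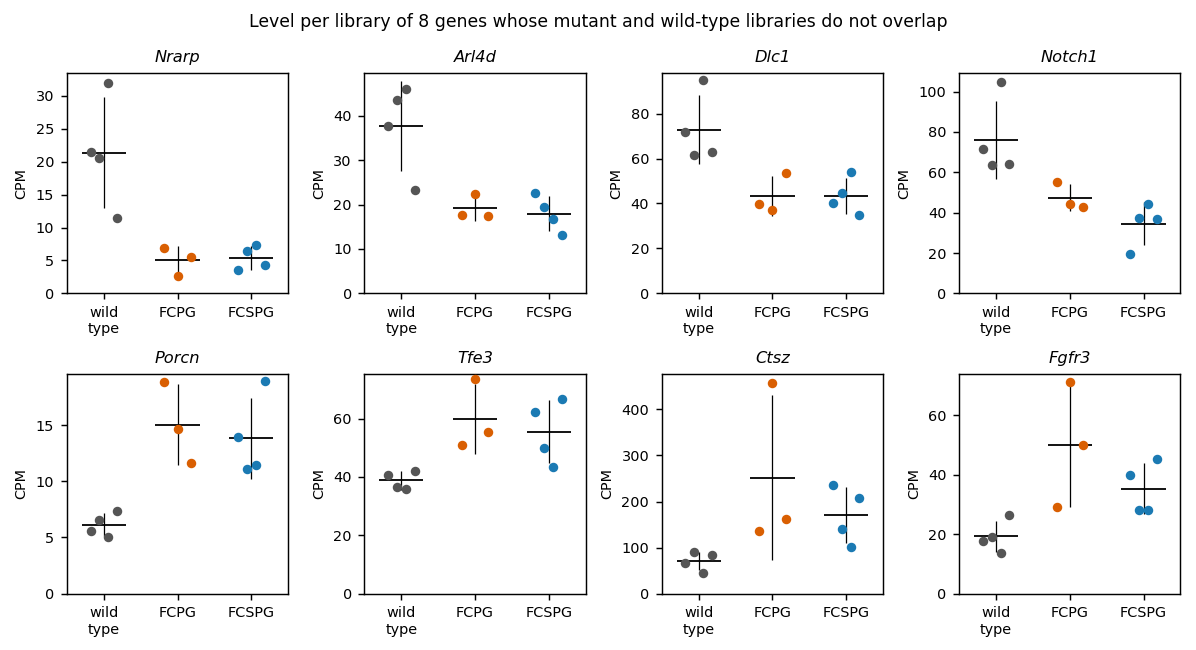
Level in CPM of 4 named genes that were lower (top row) and 4 that were higher (bottom row) in mutants, by group; points are libraries, horizontal lines the group mean and vertical lines 1 SD. No mutant library crosses into the wild-type range, as for Nrarp, where mutants are at 2.59 to 7.32 CPM and wild type at 11.5 to 32.0 CPM.

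On the higher side the smallest p among the named genes belonged to Porcn, the acyltransferase that attaches a lipid to Wnt proteins before they are secreted (ENSMUSG00000031169, mm39 chromosome X, 8060087 to 8072764). Wild-type libraries held 5.56, 6.55, 5.06 and 7.39 CPM. FCPG libraries held 18.8, 14.7 and 11.7 CPM and FCSPG libraries 13.9, 11.1, 11.4 and 18.9 CPM. Wild type averaged 6.14 ± 1.04 CPM (SD, n = 4) and the mutants 14.4 ± 3.35 CPM (SD, n = 7). All mutants were above wild type, and the 3 libraries with Y-linked counts were the highest (14.7 to 18.9 CPM against 11.1 to 13.9 CPM in the other 4 mutants). The log2 fold change was 1.23 ± 0.21 (SE; edgeR adjusted p = 0.178), or 0.98 in the female libraries alone. In the other 13 higher genes described here male and female mutants overlapped, and of the lower named genes this was so for all but Dlc1.

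Of the 14 higher genes described here, Ctsz, Hexa, Vamp8 and Tfe3 have roles in endosomes and lysosomes. Ctsz, the lysosomal protease cathepsin Z, was at 67.2, 90.5, 45.6 and 83.2 CPM in wild type, at 136, 457 and 162 CPM in FCPG and at 235, 140, 100 and 207 CPM in FCSPG. FCPG library 45 stood far above the rest and FCSPG library 30 was closest to wild type. The log2 fold change was 1.52 ± 0.38, and 1.21 without FCPG library 45. Hexa, a subunit of the enzyme that degrades GM2 ganglioside, was at 24.1 to 38.3 CPM in wild type and at 40.8 to 136 CPM in mutants (1.12 ± 0.30). Vamp8, a SNARE of late endosome fusion, was at 15.2 to 24.7 CPM and at 30.8 to 102 CPM (1.27 ± 0.33). Tfe3, a transcription factor that activates lysosomal genes, was at 35.9 to 42.1 CPM in wild type and at 43.5, 55.5 and 73.6 CPM as lowest, median and highest of the mutants (0.57 ± 0.14).

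The list of lysosomal cathepsins and hydrolases had 16 of 17 tested members higher, with a median log2 fold change of 0.97 against −0.00 over all tested genes. None was called. Unadjusted, 10 were higher with p under 0.05 (9.11% of all tested genes were), and 3 lay above wild type without overlap (1.29% of all tested genes), namely Ctsz, Hexa and Glb1. The list median was 0.58 without FCPG library 45, 0.50 in female libraries only and 0.02 with the visceral endoderm covariate. Their summed level was 867 to 1306 CPM in wild type, 1558 to 6743.5 CPM in FCPG and 1199 to 2712 CPM in FCSPG. Among the mutants only FCSPG library 30 lay inside the wild-type range. Glb1, the lysosomal beta-galactosidase, named here after its values were seen, was at 10.1 to 12.4 CPM in wild type and at 14.0 to 45.7 CPM in mutants (0.87 ± 0.31). Among members that overlapped, the cysteine protease Lgmn, legumain, was at 30.8 to 149 CPM in wild type and at 85.5 to 1596 CPM in mutants (2.69 ± 0.75), and Ctsb, cathepsin B, at 66.0 to 117 CPM and 100 to 758 CPM (1.76 ± 0.48).

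The promoter of Glb1 is shown because it holds the core of the CLEAR motif, TCACGTG or its reverse complement CACGTGA, through which Tfe3 and its relatives bind lysosomal genes. It is on the plus strand at chr9:114400828-114401077 in the same RefSeq table (GRCm38.p6), 250 bases before the start, with the match at position −49 in capitals.
Glb1: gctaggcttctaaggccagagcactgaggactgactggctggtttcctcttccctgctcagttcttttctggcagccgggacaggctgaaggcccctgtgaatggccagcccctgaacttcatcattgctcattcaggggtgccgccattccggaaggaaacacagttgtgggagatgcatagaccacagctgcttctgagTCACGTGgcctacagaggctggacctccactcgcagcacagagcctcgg
The promoters of Ctsz, Hexa, Ctsc and Ctsl held no match in this window. Of the promoters listed for Lgmn, 1 held a match, at −50, and the other held none. Among all 32851 promoters of that source, 1028 held a match (3.13%).

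Other genes of the higher side had roles at the cell membrane and outside the cell. Tmem30b, a subunit of phospholipid flippases, was at 2.54 to 5.52 CPM in wild type and 6.04 to 48.5 CPM in mutants (2.18 ± 0.57). Enpp2, autotaxin, which makes lysophosphatidic acid, was at 1.01 to 1.46 CPM and at 1.76 to 20.8 CPM (2.57 ± 0.68), the largest log2 fold change of the 14.

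Fgfr3, a sister receptor of Fgfr1, was at 17.9, 19.1, 13.8 and 26.4 CPM in wild type, at 29.3, 71.2 and 49.9 CPM in FCPG and at 39.8, 28.0, 28.2 and 45.4 CPM in FCSPG. The groups did not overlap, though wild-type library 33 lay close to FCSPG libraries 27 and 30. Its log2 fold change was 1.11 ± 0.28 (SE; edgeR adjusted p = 0.193). Hspb1, a small heat-shock protein, was at 3.16 to 4.82 CPM in wild type and at 6.95, 14.6 and 32.1 CPM as lowest, median and highest of the mutants (1.88 ± 0.42). Dlgap3, a scaffold protein known from synapses, was at 2.24 to 4.01 CPM and at 4.52 to 8.75 CPM (1.02 ± 0.26). Mvp, the major vault protein, and Scly, selenocysteine lyase, had 1.29 ± 0.35 and 1.01 ± 0.27. Mfsd13a, a transporter-like protein, had 0.96 ± 0.25, and Ech1, an enzyme of fatty acid oxidation, 0.50 ± 0.13.

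Markers of visceral endoderm, the extraembryonic layer that covers the early embryo, moved with these genes. All 28 tested members of that list were higher in mutants, with a median log2 fold change of 2.98, and 25 had an unadjusted p under 0.05 (9.11% of all tested genes in that direction), with 0 called. Their summed level was 273, 764, 966 and 1825 CPM in wild type, 2513, 6267 and 23345 CPM in FCPG, and 1169, 2872, 5343 and 5617 CPM in FCSPG. FCSPG library 30, the lowest mutant, lay below wild-type library 33, the highest wild type. The defining markers Afp, Ttr, Apoa1, Apob, Amn and Cubn were at 0 in no library. In bulk tissue a larger share of such cells and more RNA per cell cannot be told apart. Of the other extraembryonic markers, all 10 tested genes of extraembryonic ectoderm and trophoblast were higher as well (median 0.78, or 1.29 without wild-type library 33). Under an unadjusted 0.05 were 3 (9.11% of all tested genes in that direction), namely Eomes, Rhox6 and Tfap2c. Some members are shared with lists described below. Tfap2c is also in the germ cell and surface ectoderm lists, Cdx2 is also in the gut endoderm list, and Eomes is also a factor of streak and endoderm. Elf5 (0.34 ± 1.02) and Rhox9 (0.33 ± 0.53) differed by less than their SE. What part the extraembryonic markers have in the values of other genes was not tested beyond the fit that follows.

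With the mean log2 level of the visceral endoderm list as a covariate, 129 genes had an unadjusted p under 0.05 in place of 2664. The covariate itself differs between the groups. All 14 higher named genes kept their direction in that fit, with log2 fold changes of 0.16 to 1.00 and a median of 22.5% of the value without the covariate. Porcn kept 81.6% and Hexa 14.6%. All 15 lower named genes kept their direction as well, with a median of 55.2%, from 42.6% for Dennd11 to 86.9% for Arl4d. Nrarp was at −1.03 in that fit. Several list medians also lay nearer 0 with the covariate, at −0.14 for trunk Hox genes, −0.13 for posterior Hox genes, −0.38 for presomitic mesoderm, −0.21 for intermediate mesoderm and −0.28 for cholesterol synthesis. On the higher side they were at 0.14 for gut endoderm, 0.09 for BMP genes and 0.10 for the respiratory chain.

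**Figure D3:**
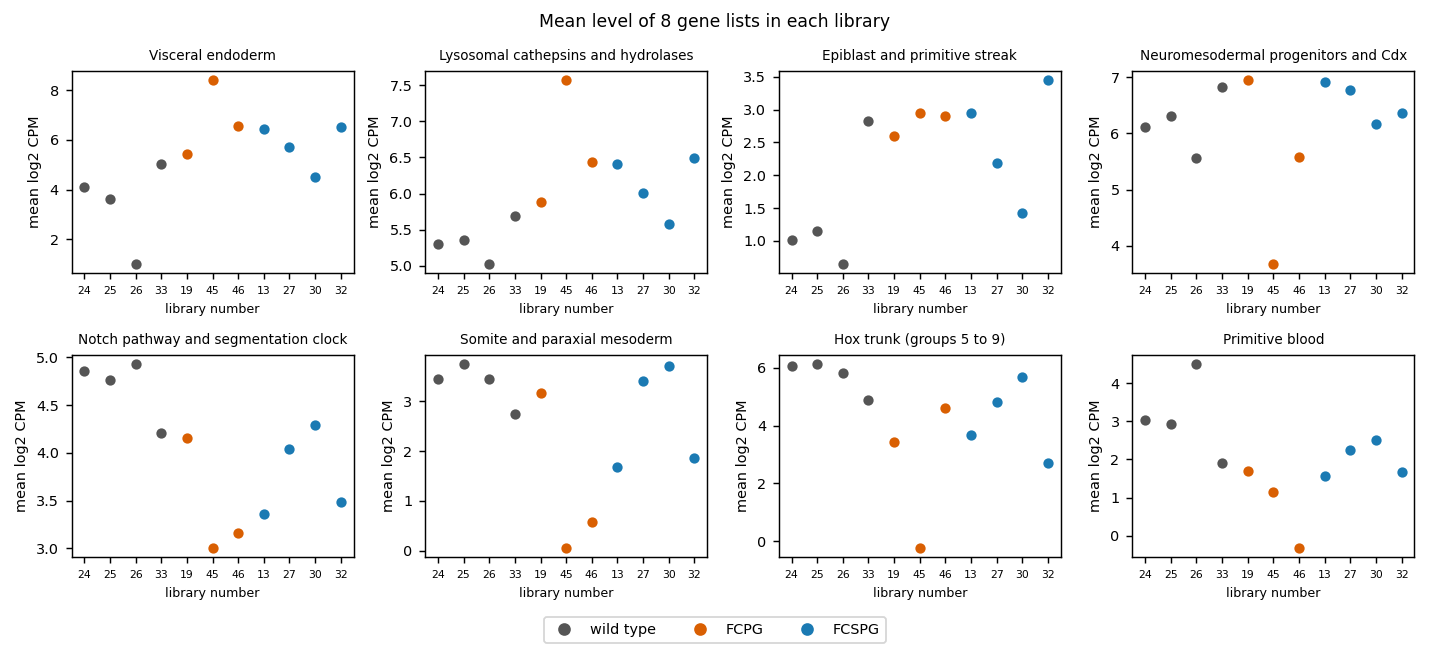
Mean log2 CPM of 8 gene lists (vertical) in each of the 11 libraries (horizontal, by library number), coloured by group. Visceral endoderm is lowest in wild-type library 26 (1.01) and highest in FCPG library 45 (8.41), Notch is below the wild-type minimum (4.20) in all mutants except FCSPG library 30 (4.29), and wild-type library 33 sits with the mutants for the epiblast list.

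No gene was called between the mutant lines, which does not show that they are alike. In the fit with 3 groups, edgeR called 0 genes between FCSPG and FCPG (0%), with a smallest adjusted p of 0.429 and 1870 genes under 0.05 before adjustment (11.6%). DESeq2 called 1 gene. Of the 386 genes separated from wild type, 38 had an unadjusted p under 0.05 between the lines and 0 passed adjustment. Without FCPG library 19, edgeR called 1124 genes between the lines.

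Among the 14 higher named genes FCPG lay farther from wild type than FCSPG in 12, with median log2 fold changes of 1.38 and 1.08. The difference was largest for Enpp2 (3.22 in FCPG and 1.77 in FCSPG; difference −1.46 ± 0.61, adjusted p = 0.429 by edgeR) and for Tmem30b (2.72 and 1.58; −1.14 ± 0.54). For Ech1 and Dlgap3 FCSPG was the larger. On the lower side FCPG was farther from wild type in 7 of 15, with medians of −0.67 and −0.62, and 0 genes had an unadjusted p under 0.05 between the lines. The values of each line share the same wild-type libraries, so their likeness is not independent evidence.

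**Figure D4:**
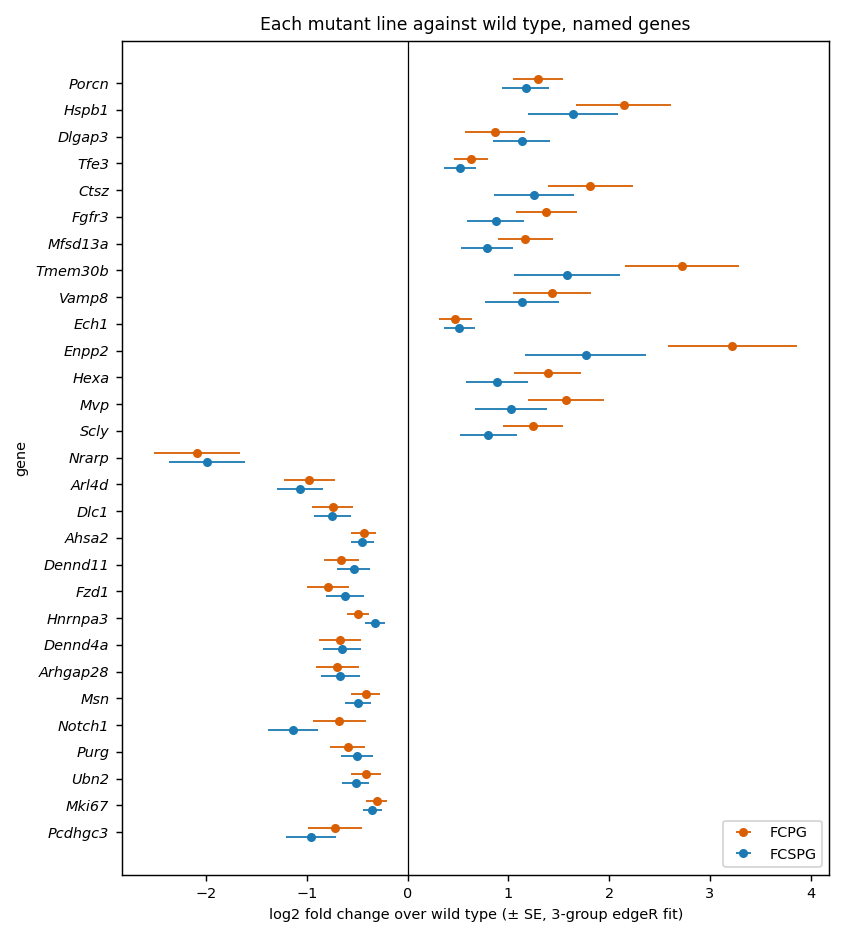
Log2 fold change over wild type of each mutant line (horizontal, ± SE from the 3-group fit) for the 14 higher and 15 lower named genes (vertical). Both lines lie on the same side of 0 for every gene; on the lower side they differ by at most 0.46, and on the higher side FCPG is farther out for Enpp2 and Tmem30b.

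The lists of the FGF pathway held members on both sides. The list of ligands also holds Fgfbp3, an FGF-binding protein, and Fgf13, which acts inside the cell, both higher (0.94 and 0.10). Of its 11 members 7 were higher and 4 lower, and 0 were called. Their median log2 fold change of 0.23 ran from 0.09 without FCSPG library 13 to 0.53 without wild-type library 25. Fgf17, a ligand of the tailbud, was at 43.3, 39.6, 51.5 and 11.4 CPM in wild type, at 7.39, 0 and 3.59 CPM in FCPG and at 8.38, 9.03, 17.4 and 3.57 CPM in FCSPG. Only wild-type library 33 lay within the mutant range, and the log2 fold change was −2.37 ± 0.74. Fgf18 and Fgf9 had −1.72 ± 0.65 and −2.29 ± 0.88, each with the same library at mutant levels. Fgf15 was at 11.2 to 27.2 CPM in wild type and at 20.3 to 90.2 CPM in mutants (1.22 ± 0.41).

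Of the 8 receptors and co-receptors, Fgfr3 and Fgfr4 did not overlap between groups, both higher, where 1.29% of all tested genes were. Fgfr4 was at 3.61 to 7.28 CPM in wild type and at 9.25 to 16.4 CPM in 6 mutants, with 68.1 CPM in FCPG library 45 (1.89 ± 0.58). Klb, the co-receptor for endocrine FGFs, was at 0.51 to 2.498 CPM in wild type and at 2.35 to 54.1 CPM in mutants (3.47 ± 0.90), with the highest value again in that library. The list median was 0.09.

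Receptor effectors and adaptors were 8 higher and 10 lower of 18, with a median of −0.02. Grb14, an adaptor that binds FGFR1 directly, was at 2.39 to 3.02 CPM in wild type and at 3.31 to 7.36 CPM in mutants (0.80 ± 0.24). It was the only member of the 18 without overlap, beside 2.39% of all tested genes. Pik3r1, a regulatory subunit of PI3-kinase, had 0.31 ± 0.11, Shb, an adaptor of tyrosine kinases, 0.50 ± 0.20, and Plcg1, phospholipase C gamma, −0.29 ± 0.13. ERK feedback genes and targets were 11 lower and 7 higher of 18, with a median of −0.03 and 0 called. Under an unadjusted 0.05, 6 were lower (7.40% of all tested genes) and 1 higher (9.11% of all tested genes). Their summed level was 935 to 1066 CPM in wild type and 784 to 844 CPM in 6 mutants. FCPG library 46, at 960 CPM, was the only mutant inside the wild-type range of this sum. By mean log2 CPM, FCPG library 46 (4.675), FCSPG library 13 (4.604) and FCSPG library 30 (4.745) lay inside the wild-type range of 4.599 to 4.757.

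Dusp6, the phosphatase that removes ERK's activating phosphates, was at 119, 125, 162 and 80.4 CPM in wild type, at 57.1, 72.2 and 80.5 CPM in FCPG and at 86.4, 65.4, 93.1 and 62.9 CPM in FCSPG. The groups overlapped only through wild-type library 33. The log2 fold change was −0.72 ± 0.18 (SE; edgeR adjusted p = 0.193). Dusp4, of the same family, had −0.39 ± 0.14, Il17rd, an FGF antagonist at the membrane, −0.60 ± 0.23 and Etv4, an ETS factor downstream of FGF, −0.88 ± 0.37. The endocytic trafficking list, taken up because the series title names that process, had 24 of 40 members higher and a median of 0.06. Rab4a, a GTPase of recycling endosomes, was the only member of the 40 without overlap, beside 2.39% of all tested genes. Its level was 20.6 to 33.7 CPM in wild type and 33.8 to 119 CPM in mutants (1.08 ± 0.32). Wild-type library 33 and FCSPG library 30 lay closest to each other.

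Mesodermal and axial genes were mostly lower, with large spread. All 15 trunk Hox genes (groups 5 to 9) were lower; their median log2 fold change was −1.51, 4 lower under an unadjusted 0.05 (7.40% of all tested genes) and 0 called. The median was −0.82 in female libraries only. Their summed level was 770 to 1825 CPM in wild type, 28.0 to 600.0 CPM in FCPG and 154 to 1501 CPM in FCSPG, so FCSPG overlapped wild type and FCPG did not. Anterior Hox genes (groups 1 to 4) were lower in 10 of 12 (−0.75), with 0 under an unadjusted 0.05, and their median turned to 0.19 with the visceral endoderm covariate. All 9 tested posterior Hox genes (groups 10 to 13) were lower too, median −1.78, but this median was −0.29 without wild-type library 26, and −2.57 without FCPG library 46. Hoxc10 was at 23.9, 7.59, 217 and 3.85 CPM in wild type and at 0 to 5.59 CPM in mutants (−4.86 ± 1.12), and without wild-type library 26, which was far above every other library, the value was −2.42. Hoxd8 was at 56.4, 42.8, 71.0 and 21.0 CPM in wild type and at 2.29, 14.2 and 33.9 CPM as lowest, median and highest of the mutants (−1.65 ± 0.55).

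Presomitic mesoderm genes were lower in 16 of 19 members (median −0.93) and somite genes in 12 of 14 (median −0.97, but 0.53 with the visceral endoderm covariate). Tbx6, which commits cells to presomitic mesoderm, was at 52.8, 58.3, 47.6 and 48.0 CPM in wild type, at 49.8, 9.18 and 7.29 CPM in FCPG and at 31.7, 21.8, 15.6 and 22.6 CPM in FCSPG. Wild type was uniform, and only FCPG library 19 reached it (−1.19 ± 0.41). Neuromesodermal progenitor genes were 11 higher and 8 lower of 19, median 0.19. Mesp1, a mesoderm gene of the primitive streak, was higher, at 0.941 to 6.97 CPM in wild type and at 1.82 to 34.7 CPM in mutants (2.36 ± 0.73). Intermediate mesoderm genes were lower in 10 of 12 (median −0.91). Gdnf, the ligand of nephric duct signalling, was at 4.29, 2.64, 2.94 and 0.312 CPM in wild type and at 0.201 to 0.909 CPM in mutants (−2.54 ± 0.57), and Emx2, a factor of the urogenital ridge, had −2.97 ± 0.75 with the same single wild-type library at mutant levels.

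Primitive blood genes were lower in 12 of 18, with a median of −1.21. Under an unadjusted 0.05, 9 were lower (7.40% of all tested genes) and 1 higher (9.11% of all tested genes). The median was −0.60 without wild-type library 26 and −0.05 with the visceral endoderm covariate. Hba-a1, an alpha globin with a near-identical copy that makes it uncertain alone, was at 45.5, 60.9, 203 and 12.5 CPM in wild type and at 6.504 to 27.2 CPM in mutants (−2.42 ± 0.58, or −1.39 without wild-type library 26). Wild-type library 26 was highest for the list, 3470 CPM in sum against 318 to 685 CPM in the other 3 wild-type libraries and 82.2 to 455 CPM in mutants. Endothelial genes were lower in 12 of 20 (median −0.29), lateral plate and allantois genes in 10 of 20 (−0.06), and cardiac genes were higher in 6 of 10 (0.50). The cardiac median was 0.11 without FCPG library 45, 0.30 without FCPG library 46 and 0.03 in female libraries only, and it turned to −0.29 with the visceral endoderm covariate. The endothelial median ran from −0.46 without FCPG library 45 to −0.12 without wild-type library 26. Among ectodermal lists, neural tube genes were lower in 13 of 16 (−0.46), neural crest genes in 8 of 9 (−0.30) and surface ectoderm genes in 6 of 11 (−0.04). The neural tube median was −0.24 without FCPG library 45, −0.25 without FCPG library 46, −0.70 without wild-type library 33 and −0.81 without FCSPG library 30, and it turned to 0.72 with the covariate. The neural crest median was −0.15 without FCPG library 45 and −0.17 without wild-type library 25. Extracellular matrix genes were lower in 32 of 44 (median −0.28). Fbn2, fibrillin, was at 117 to 302 CPM in wild type and at 39.4 to 165 CPM in mutants (−1.33 ± 0.36).

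Epiblast and primitive streak genes were higher in 16 of 19, with a median of 1.24. Higher under an unadjusted 0.05 were 7 (9.11% of all tested genes). Nanog, a pluripotency factor, was at 0.265, 0.283, 0.745 and 1.82 CPM in wild type, at 4.22, 5.94 and 17.99 CPM in FCPG and at 7.85, 1.80, 2.299 and 21.8 CPM in FCSPG. Overlap came only from wild-type library 33 (1.82 CPM) and FCSPG library 27 (1.80 CPM), and the log2 fold change was 3.50 ± 0.85 (SE; edgeR adjusted p = 0.193, DESeq2 adjusted p = 0.000274). Eomes, a T-box factor of the streak and of endoderm, was at 0.118 to 0.572 CPM in wild type and at 0.321 to 4.93 CPM in 6 mutants, with 34.0 CPM in FCPG library 45 (4.39 ± 1.35). The 9 tested germ cell genes were all higher, with a median of 0.63, or 0.29 without FCPG library 46, and 2 were under an unadjusted 0.05 (9.11% of all tested genes in that direction). Without wild-type library 33 the epiblast median was 2.14, in female libraries only it was 0.72, and with the visceral endoderm covariate it turned to −0.09.

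Gut endoderm genes were higher in 19 of 22 (median 0.77). This list shares Hnf4a (3.68), Gata4 (2.07), Sox17 (1.59), Foxa2 (0.76) and Gata6 (0.42) with the visceral endoderm list. Cdx2 (0.33) and Foxa1 (0.26) were little changed, and the 3 lower members were Shh (−1.08), Krt19 (−0.29) and Pyy (−0.18). The epithelial cadherin Cdh1 was at 71.1, 76.8, 54.9 and 105 CPM in wild type and at 90.9, 162 and 265 CPM as lowest, median and highest of the mutants (1.17 ± 0.32). The list of mesenchymal transition genes and cadherins, which holds Cdh1, had 5 members higher and 10 lower of 15 (median −0.15), with 0 called. Under an unadjusted 0.05 there were 3 higher (9.11% of all tested genes), Cdh1, Epcam (0.63 ± 0.21) and Esrp1 (0.44 ± 0.16), and 2 lower (7.40%). The 2 lower were Zeb1, a repressor of Cdh1, and Cdh2, N-cadherin, with −1.0015 ± 0.30 and −0.61 ± 0.19, each overlapping. BMP ligands, antagonists and targets were higher in 18 of 20 (median 0.59). Under an unadjusted 0.05, 8 were higher (9.11% of all tested genes) and 1 lower (7.40% of all tested genes). Id3, a BMP target, was at 107 to 185 CPM in wild type and at 175 to 323 CPM in mutants (0.51 ± 0.19).

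Cholesterol synthesis genes were lower in 20 of 24, with a median log2 fold change of −0.48 and 0 called. Under an unadjusted 0.05, 13 were lower (7.40% of all tested genes) and 0 higher (9.11% of all tested genes). Cyp51, a demethylase of the pathway, was at 119, 71.9, 84.5 and 54.6 CPM in wild type, at 41.5, 42.7 and 43.7 CPM in FCPG and at 39.2, 47.0, 67.5 and 40.0 CPM in FCSPG. Overlap came only from wild-type library 33 and FCSPG library 30 (−0.85 ± 0.20). Hmgcs1, which makes HMG-CoA, was at 130 to 229 CPM and at 85.2 to 147 CPM (−0.65 ± 0.17), and Sqle and Fdft1, squalene epoxidase and squalene synthase, had −0.58 ± 0.17 and −0.45 ± 0.14. With any 1 library left out the list median stayed between −0.58 and −0.33.

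Respiratory chain genes encoded in the nucleus were higher in 60 of 62, by little: the median was 0.25. Under an unadjusted 0.05, 18 were higher (9.11% of all tested genes) and 0 lower (7.40% of all tested genes). The list median was 0.11 in FCPG and 0.36 in FCSPG. Cox8a, a subunit of cytochrome c oxidase, was at 118 to 127 CPM in wild type and at 126 to 244 CPM in mutants (0.49 ± 0.15), with only FCPG library 46 inside the wild-type range. Mitochondrial ribosomal proteins were higher in 62 of 76 (median 0.14). Cytosolic ribosomal proteins were higher in 66 of 78 by the pooled value (median 0.12, with 0 under an unadjusted 0.05 in either direction), and their medians had opposite signs in the lines, −0.13 in FCPG and 0.28 in FCSPG.

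Of the remaining pathway lists, Wnt ligands were lower in 9 of 14 (−0.44), Wnt targets and modulators in 13 of 21 (−0.12), retinoic acid genes in 10 of 17 (−0.01) and Eph receptors and ephrins in 12 of 17 (−0.17). With the visceral endoderm covariate the medians turned to 0.21 for Wnt ligands, 0.03 for Wnt targets and 0.15 for retinoic acid genes. Efna3, an ephrin ligand, was the only Eph member without overlap, at 13.6 to 21.7 CPM in wild type and at 5.53 to 12.3 CPM in mutants (−0.90 ± 0.23). Among Wnt modulators Tcf7l1, a repressor of Wnt targets, was without overlap, at 43.2 to 63.0 CPM and at 26.9 to 42.7 CPM (−0.37 ± 0.14). Ihh, a Hedgehog ligand of endoderm, was the only non-overlapping member of its list, at 2.47 to 9.42 CPM in wild type and at 10.3 to 61.4 CPM in mutants (1.81 ± 0.52). The lists of Efna3, Tcf7l1 and Ihh held 17, 21 and 16 tested genes, and 2.39% of all tested genes did not overlap. PDGF ligands and receptors were lower in 5 of 6 (−0.19) and immediate early genes higher in 13 of 19 (0.23). Stress-response, p53, hypoxia and imprinted gene lists had medians between −0.13 and −0.02, of which those of the p53, stress-response and imprinted lists changed sign when single libraries were left out.

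**Figure D5:**
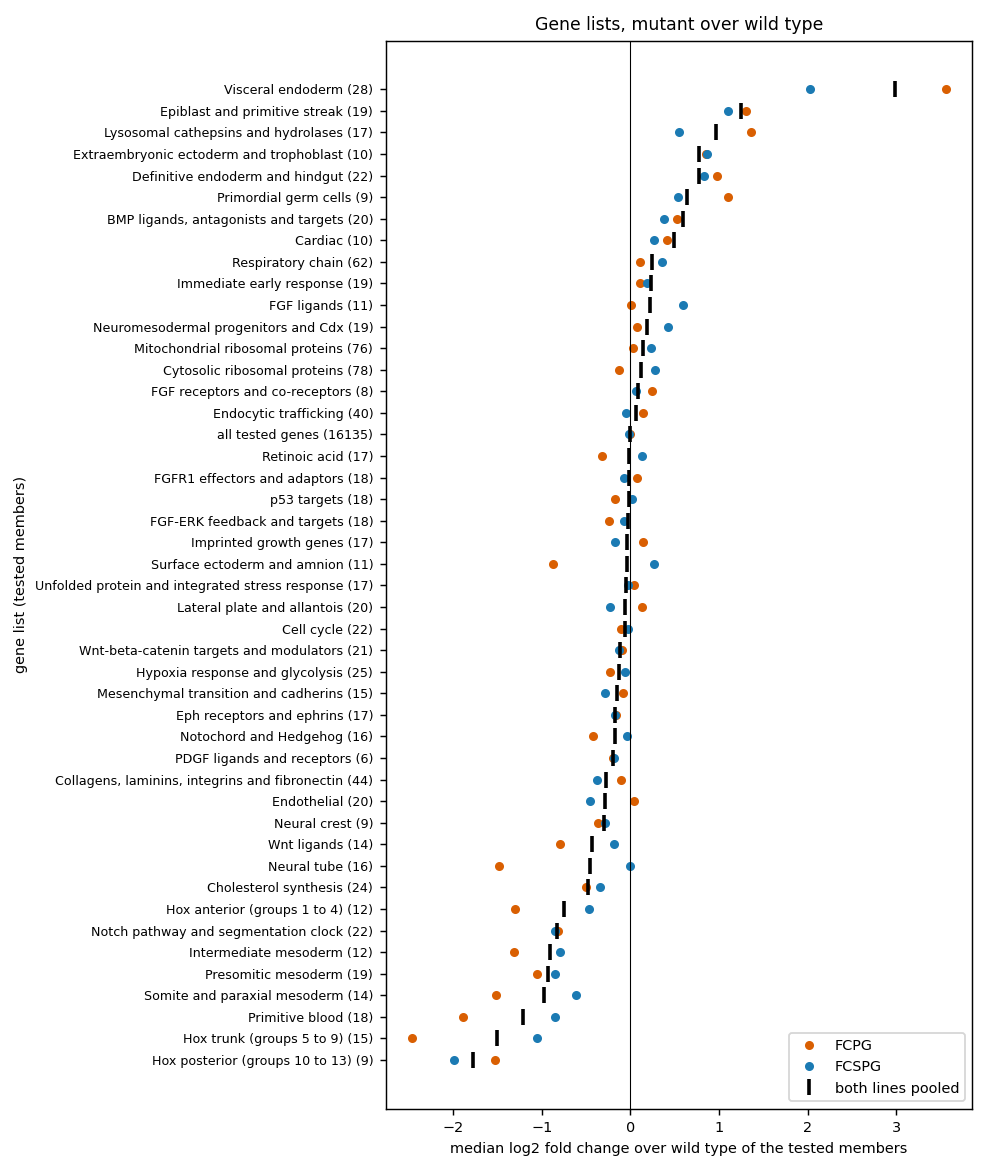
Median log2 fold change over wild type (horizontal) of the tested members of each gene list (vertical, number tested in brackets), for FCPG, FCSPG and both lines pooled. Visceral endoderm (2.98) and epiblast (1.24) stand at the higher end and the posterior (−1.78) and trunk (−1.51) Hox lists at the lower end, while all tested genes stand at −0.00.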

How the data were processed

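The deposited gene table holds raw counts of reads per gene; the submitters' processing notes name HISAT2, featureCounts, DESeq2 and the mm39 build, with no versions, and do not say whether counting used strand, although the library kit marks it. All 11 libraries were used, with 16014698 to 25453070 counts each. The authors' deposited FPKM table and comparison tables were not used here. Genes kept by edgeR's filterByExpr (16135) were scaled by TMM and tested with edgeR 4.0.16's quasi-likelihood F test (R 4.3.3), 7 mutant against 4 wild-type libraries, two-sided, with Benjamini-Hochberg adjustment at 0.05. A fit with 3 groups gave each line's value and the difference between lines. Fold changes are edgeR's, with standard errors computed from the coefficient and its F value. Sex was read from Y-linked counts (over 10 CPM).

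Named genes were Fgfr1, the 15 protein-coding genes per direction with the smallest p among those averaging at least 5 CPM with no overlap between groups (chosen from 135 higher and 128 lower), and up to 4 members of each gene list with the smallest p. Of these, 1 gene is not reported here, and values over the named genes leave it out. Pou5f1, Atp7b, the tissue markers of the opening and all genes said to be named after their values lie outside this rule. The members and the 46 lists were chosen with earlier results of these data known, so lists are described by counts and medians and carry no test. Members that failed the filter have no value, which left 28 of 31 visceral endoderm and 18 of 19 primitive blood members. The alternatives were DESeq2 1.42.0 size factors and Wald test, limma-voom 3.58.1, other filters, a minimum log2 fold change of 0.5, sex and visceral endoderm covariates, and leaving out lines, sexes and single libraries. The scripts were tested on simulated data. Promoter sequences are RefSeq's (GRCm38.p6), matched by symbol.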

Additional observations from a re-analysis of the deposited data

Results flagged for a closer look

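In groups of 4 to 10 libraries, 240 groups over 80 genes were searched for a highest or lowest library that stood apart from its nearest neighbour by more than Dixon's 95% critical value, and 33 were found. Chance alone gives about 1 in 20 groups, and values of 1 library across genes are not independent. No explanation was tested for any of them.

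FCPG library 45 stood above the other 6 mutant libraries in 17 of the 33. Of genes with lysosomal roles, this concerned Ctsz (457 CPM, next highest 235 CPM), Hexa (136 CPM), Ctsh (533 CPM), Ctsb (758 CPM), Lgmn (1596 CPM) and Glb1 (45.7 CPM). Of visceral endoderm and endodermal genes it concerned Dab2 (2030 CPM, next highest 468 CPM), Rhox5 (269 CPM), Mttp (578 CPM) and Eomes (34.0 CPM). Receptors and ligands in the same position were Fgfr4 (68.1 CPM), Klb (54.1 CPM) and Bmp6 (30.4 CPM). The remaining ones were Mfsd13a (27.2 CPM), Tmem30b (48.5 CPM), Mvp (33.7 CPM) and Scly (60.7 CPM).

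FCSPG library 30 lay toward wild type where it stood apart. It was above the other mutants in Fgf9 (11.5 CPM), Hoxc9 (34.1 CPM) and Cyp51 (67.5 CPM), above the other FCSPG libraries in Plcg1 (167 CPM) and below them in Ech1 (17.6 CPM). FCSPG library 13 was above the other mutants in Fgf15 (90.2 CPM) and, within its line and among all mutants, in Id3 (323 CPM). FCSPG library 27 was above its line in Dll3 (37.9 CPM). FCPG library 46 was above the other mutants in Il17rd (150 CPM, next highest 77.5 CPM) and in Hoxd11 (2.01 CPM).

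Among wild-type libraries, number 26 was above the other 3 in Hoxc10 (217 CPM), Hoxd11 (45.4 CPM) and Dennd4a (17.2 CPM) and below them in Scly (12.98 CPM). Wild-type library 33 was above the other 3 in Pou5f1 (75.5 CPM, next highest 4.33 CPM).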

How the results depend on the processing

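No paired analysis was possible because the columns carry numbers other than the title numbers. The count of genes called between mutants and wild type stayed at 0 under the other scaling, limma-voom, both filters, the 3-group mean, the minimum fold, both covariates, female libraries only and either line left out; it was 728 with DESeq2's Wald test, ran from 0 to 18 with 1 library left out, and was 59 (26 higher, 33 lower) without wild-type library 33 and FCPG library 45 together, an alternative chosen after seeing the data. The count of non-overlapping genes was 753 in female libraries only, 1156 with FCPG left out, 2341 with FCSPG left out, 418 to 1600 with 1 library left out and 1826 without that pair of libraries; fewer libraries make separation easier by construction. DESeq2's size factors gave 231 higher and 166 lower in place of 208 and 178. Genes called between the lines numbered 1 by DESeq2 and 0 to 1124 with 1 library left out. Fgfr1, near 0 throughout, turned negative under limma-voom (−0.0016), the sex covariate (−0.15), female libraries only (−0.14), FCPG left out (−0.022) and 4 single omissions; with 1 library left out it ran from −0.044 to 0.065. With the visceral endoderm covariate Eomes (−0.27), Bmp6 (−0.12) and Hes5 (0.57) reversed; the cause was not tested. The 14 higher and 15 lower genes named first kept their direction under every alternative run. Where libraries, a line or a sex were left out, this follows from choosing genes without overlap between groups.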

Other observations

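Processed pseudogenes, copies of spliced transcripts, were unevenly placed in the ranking by p. They made up 4.91% of tested genes but 8 of the 20 with the smallest p, all lower in mutants, and 16 of the 50 smallest, 15 of them lower. Over all 792 tested processed pseudogenes the median log2 fold change was 0.06, and 347 were lower. Gm7931 had mean levels of 16.4 CPM in wild type and 4.48 CPM in mutants (−1.87 ± 0.28), and Gm5805 of 25.7 and 9.16 CPM (−1.49 ± 0.26). Of the 18 genes that edgeR called without wild-type library 33, 9 were processed pseudogenes, all lower. Reads of such genes can come from the near-identical parent gene or the reverse, so each is uncertain as a single gene. The labels give no strain, and whether strain differs between mutants and wild type, which would change what these values mean, was not tested. These genes were picked out after their values were seen.

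The only gene called higher without wild-type library 33 was Foxh1, a partner of Nodal signalling that is in the epiblast and primitive streak list, with a log2 fold change of 4.41 ± 0.65 (edgeR adjusted p = 0.0274). Genes called lower in that fit included Ets2, an ETS transcription factor (−1.10 ± 0.14, edgeR adjusted p = 0.0131), and Btg2, an antiproliferative gene (−2.02 ± 0.31, edgeR adjusted p = 0.0358). Leaving out library 33 gave the most calls of any single omission, and the main test with all libraries called none of these genes.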
